A study of Homo sapiens with 6 samples.

Results

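YAP and TEAD target genes were followed in U2OS cells, an established human osteosarcoma line, kept for 4 days with an inhibitor of PARG, the glycohydrolase that takes poly(ADP-ribose) chains apart. The 10 genes, taken by symbol from the 60708 gene identifiers of the count files, were CCN1, CCN2, ANKRD1, AXL, F3, AMOTL1, AMOTL2, LATS2, AJUBA and TEAD1, and all 10 had enough counts for the fit. They are known targets of the pathway that were picked with the difference between inhibitor and solvent in view, so that difference is described for them and not tested. The control group was U2OS WT cells in the solvent DMSO and the treated group, called PARGi here, was U2OS WT cells in 25 µM PDD00017273, with 4 days in both. Each group had 3 replicate libraries, which the series calls biological, all from 1 cell line and 1 dose. The labels do not say whether the replicates were grown on separate days, so the spread between libraries may be partly technical.

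YAP1 and its relative TAZ, encoded by WWTR1, are transcriptional coactivators that bind DNA through the TEAD factors. The Hippo kinases, MST1 and MST2 followed by LATS1 and LATS2, phosphorylate YAP and TAZ and hold them in the cytoplasm, while spread cells under tension keep them in the nucleus. Some of the genes that YAP and TEAD switch on act outside the pathway, and others encode its own brakes. In mesenchymal and osteosarcoma cells CCN1, CCN2 and ANKRD1 are the usual readouts of this activity.

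TEAD factors bind a short motif written GGAATG on one strand and CATTCC on the other, and the promoter of CCN2 is a textbook example of it. RefSeq windows from 250 bases before to 50 bases after the start site (GRCh38.p14) were found for 8 of the 10 genes, in 11 windows, with none for CCN1 and TEAD1. The stretch before the start of CCN2, chr6:131951374-131951622 on the minus strand, is shown because it holds 3 matches, in capitals, on the strand of the gene. The stretch before F3, chr1:94541801-94542009 on the minus strand, is shown as the contrast. It has no TEAD-type match but 2 matches, in capitals, to TGANTCA, the palindromic motif of AP-1 factors.
CCN2: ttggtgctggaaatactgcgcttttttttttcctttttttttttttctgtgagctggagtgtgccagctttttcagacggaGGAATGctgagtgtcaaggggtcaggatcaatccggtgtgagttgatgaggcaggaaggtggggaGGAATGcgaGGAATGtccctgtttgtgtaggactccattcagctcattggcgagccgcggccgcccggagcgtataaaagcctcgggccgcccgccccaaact
F3: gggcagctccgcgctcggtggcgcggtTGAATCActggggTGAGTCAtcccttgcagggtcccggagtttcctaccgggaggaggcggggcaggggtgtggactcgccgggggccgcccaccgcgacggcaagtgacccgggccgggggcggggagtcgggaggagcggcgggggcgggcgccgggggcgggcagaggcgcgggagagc

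The other matches are printed with the bases around them, 30 bases in all and 5′ to 3′ on the strand of the gene, with the match in capitals. They let the genes with the larger differences (ANKRD1 and AXL) be set beside those with small ones (AMOTL2, LATS2 and AJUBA). ANKRD1 had 2 matches, which began 220 and 128 bases before its start (chr10:90921290-90921319 and chr10:90921198-90921227). The match of AMOTL2 (chr3:134374499-134374528) and that of AXL (chr19:41226531-41226560) lie on the opposite strand of the gene and so read CATTCC. The match of AJUBA (chr14:22976884-22976913) lies 59 bases before a start, and that of LATS2 (chr13:21061560-21061589) begins 10 bases after its start. Each of AMOTL2, AJUBA and AXL has 2 RefSeq starts with a match near only 1 of them, and GENCODE 29 places the second ANKRD1 match and those of AMOTL2 and AJUBA inside an annotated exon.
ANKRD1 far: atcaccaccaaaGGAATGgccctctcacat
ANKRD1 near: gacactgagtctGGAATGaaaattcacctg
AXL: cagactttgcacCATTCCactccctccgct
AMOTL2: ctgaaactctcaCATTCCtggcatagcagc
AJUBA: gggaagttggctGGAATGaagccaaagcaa
LATS2: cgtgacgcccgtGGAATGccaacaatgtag

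In all, 6 of the 8 genes with a window (6 of 11 windows) held GGAATG on either strand. Of all 35116 promoter windows 14.0% held it, and of all 27305 genes with a window 16.7% did. At least 2 matches, as in ANKRD1, were found in 1.37% of windows, and at least 3, as in CCN2, in 0.128%. TGANTCA was in the windows of ANKRD1 and F3 and in 7.71% of all windows. A match is a string of letters and shows no binding, and these genes were named as TEAD targets in the first place. In the map of matches, AMOTL2, AJUBA and LATS2, whose levels differed little between the groups as described next, each had a match. F3, which differed more, had none. The other way round, CCN2, ANKRD1 and AXL, which were higher in PARGi, had matches, and AMOTL1, which differed little, had none. Sequence outside these windows was not searched, and a link between matches and levels was not tested.

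**Figure D1:**
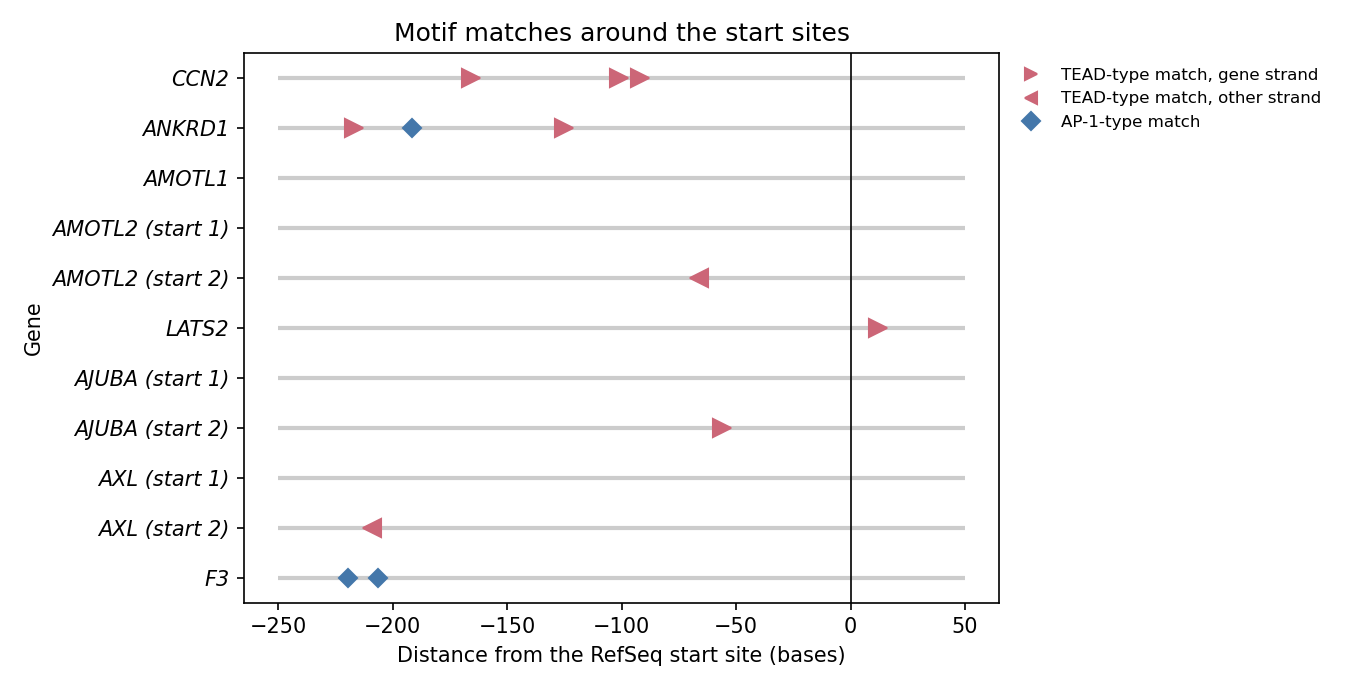
Positions of motif matches from 250 bases before to 50 bases after each RefSeq start site (x axis, distance in bases; 1 row per start). Red triangles are TEAD-type matches and point right on the strand of the gene, and blue diamonds are AP-1-type matches. CCN2 has 3 TEAD-type matches and ANKRD1 has 2, while AMOTL1 and F3 have none.

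Depth was high and even, from 60286931 to 80605145 counts per library, with TMM scaling factors of 0.9953 to 1.007. Mitochondrial transcripts made up 3.48% to 3.88% of the counts in DMSO and 3.5% to 3.62% in PARGi. Of 8 osteosarcoma or mesenchymal markers 7 were at 1 CPM (the count scaled to the size of the library) or more in DMSO, with TWIST1 below it, and they summed to 9910 to 10700 CPM in DMSO and 9990 to 10100 CPM in PARGi. Of the 7, tested as described below for other genes, 1 rose and 3 fell, where 24.3% of all tested genes passed. ALPL rose (4.68 to 5.52 CPM, edgeR adjusted p = 0.0364). Those that fell were COL1A2 (13 to 7.41 CPM, edgeR adjusted p = 1.6e-08), RUNX2 (83.3 to 69.0 CPM, edgeR adjusted p = 4.96e-08) and SPARC (1680 to 1580 CPM, edgeR adjusted p = 0.00653). COL1A1, VIM and FN1 did not pass. Markers of other cell types were low in both groups, with CLDN4 (4.1 CPM in DMSO) and TEK (3.82) the highest there, and no marker was at 0 in all libraries. Among them CDH1 rose (0.718 to 1.14 CPM, edgeR adjusted p = 0.0104) and KDR fell (0.472 to 0.279 CPM, edgeR adjusted p = 0.0432). The 5 epithelial markers summed to 7.88 to 8.76 CPM in DMSO and 7.73 to 9.19 CPM in PARGi. The 5 blood markers summed to 1.2 to 1.44 CPM and 1.28 to 1.44 CPM, and the 5 endothelial ones to 6.48 to 8.61 CPM and 7.92 to 8.92 CPM.

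The 10 genes are described here by role. The genes that act outside the pathway (CCN1, CCN2, ANKRD1, F3 and AXL) were 12.0% to 32.1% higher in PARGi than in DMSO, and the pathway's own components (AMOTL1, AMOTL2, LATS2, AJUBA and TEAD1) lay within 4.39% of DMSO in either direction. Summed, the first 5 went from 1370 ± 6.04 CPM in DMSO to 1720 ± 13.6 CPM in PARGi, and the other 5 from 778 ± 8.32 to 778 ± 2.92 CPM (SD, n = 3 each). This division follows what the genes encode, but it was drawn with the values in view. It does not hold for all other targets or components of the pathway. Of 13 other signature targets tested below, 4 passed as higher and 4 as lower. Of 7 further named targets 4 passed as higher and none as lower. Over all genes 13.2% passed as higher and 11.0% as lower. Of 18 Hippo components outside the 10, tested as described below, 7 passed and 11 did not, where 24.3% of all genes passed. Among them WWC1 (23%), NF2 (18%), MAP4K4 (13.4%) and AMOT (-18.2%) differed from DMSO by more than AXL did. In 7 of the 10 genes the 3 libraries of a group all lay on the same side of the other 3, with 6 higher and 1 lower in PARGi. Over all 20409 genes tested, 38.0% had such groups without overlap, 19.8% with PARGi higher and 18.2% with PARGi lower. The genes were chosen on this contrast, so nothing is read from their count. Their median log2 fold change was 0.11, and that of all tested genes was -0.0070.

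**Figure D2:**
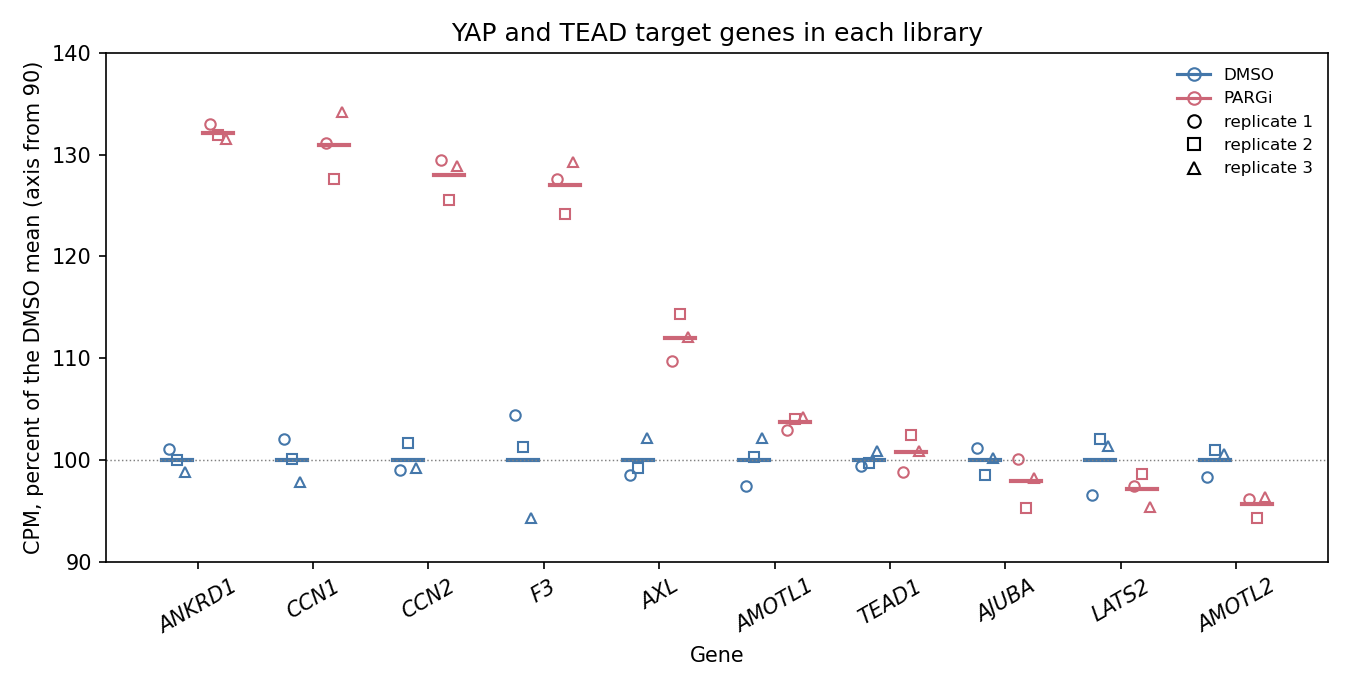
CPM of each gene in each library as a percent of that gene's DMSO mean (y axis, which starts at 90; open symbols are libraries, marked by replicate number, and bars are group means). The PARGi libraries of ANKRD1, CCN1, CCN2 and F3 sit between 124.2% and 134.2%, those of AXL between 109.7% and 114.3%, and those of the other 5 genes between 94.32% and 104.2%.

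CCN1 and CCN2 encode secreted matricellular proteins that bind integrins and shape adhesion and matrix production. CCN1 (ENSG00000142871.18, plus strand of chromosome 1, 85580761 to 85583962 in GENCODE 29 on GRCh38) stood at 382, 374 and 366 CPM in DMSO replicates 1 to 3 and at 491, 477 and 502 CPM in PARGi replicates 1 to 3. Every PARGi library was well above every DMSO library, and the lowest PARGi value was PARGi replicate 2. On the log2 scale the fold change was 0.39 ± 0.026 (standard error, SE), so the level was 31.0% higher. In bulk RNA, more cells with a transcript and more transcript per cell cannot be told apart, here and for every gene that follows.

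CCN2 (ENSG00000118523.6, minus strand of chromosome 6, 131948176 to 131951373), long known as connective tissue growth factor, was at 312, 320 and 312 CPM in DMSO and 408, 395 and 406 CPM in PARGi. The groups were again wide apart, with PARGi replicate 2 the lowest of its group as for CCN1. The log2 fold change was 0.36 (SE 0.024), a level 28.0% higher. An antisense gene overlaps 8.34% of its exonic bases on the other strand, but that gene had 0.346 to 0.892 CPM in any library.

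ANKRD1 (ENSG00000148677.7, minus strand of chromosome 10, 90912096 to 90921276) encodes a nuclear and sarcomeric ankyrin repeat protein that responds to stretch. It was the steadiest of the genes in the treated cells, at 369, 366 and 365 CPM against 281, 277 and 274 CPM in DMSO. The coefficient of variation was 1.15% in DMSO and 0.569% in PARGi, far below the distance between the groups. Its log2 fold change of 0.40 (SE 0.024) was the largest of the 10, and 11.7% of all tested genes had a larger absolute value.

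F3 (ENSG00000117525.14, tissue factor) starts the extrinsic arm of blood clotting at the cell surface by binding factor VII. Its locus is on chromosome 1, minus strand, 94529225 to 94541800. It had the lowest counts of the 10, between 1653 and 2663 per library, and the widest spread in DMSO, a coefficient of variation of 5.19%. The levels were 26.7, 26.0 and 24.1 CPM in DMSO and 32.7, 31.8 and 33.1 CPM in PARGi, so the groups did not overlap, and DMSO replicate 3 was the lowest. The log2 fold change was 0.35 (SE 0.040), or 27.2% higher, close to that of CCN2.

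AXL (ENSG00000167601.12, plus strand of chromosome 19, 41219203 to 41261766) is a receptor tyrosine kinase of the TAM family whose ligand is GAS6. It was at 377, 379 and 391 CPM in DMSO and 419, 437 and 428 CPM in PARGi. The groups did not overlap, but as a percent of the DMSO mean the gap between the highest DMSO and the lowest PARGi library was narrower than for the 4 genes above. The log2 fold change was 0.16 (SE 0.025), a level 12.0% higher, and 35.9% of tested genes had a larger absolute value.

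The pathway components among these genes differed far less. AMOTL1 and AMOTL2 encode angiomotin-like proteins, which bind YAP and hold it at junctions and in the cytoplasm. AMOTL1 was at 169, 174 and 177 CPM in DMSO and 178, 180 and 180 CPM in PARGi, and AMOTL2 at 68.9, 70.8 and 70.5 CPM in DMSO and 67.4, 66.1 and 67.5 CPM in PARGi. These near relatives thus lay on opposite sides of DMSO: AMOTL1 was higher in all 3 PARGi libraries by a log2 fold change of 0.052 (SE 0.025), and AMOTL2 lower in all 3 by -0.065 (SE 0.028). With upper-quartile scaling AMOTL1 was at 0.028 and its groups overlapped, while AMOTL2 was at -0.089.

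LATS2 is the Hippo kinase that phosphorylates YAP and TAZ, and AJUBA is a LIM domain protein that binds LATS kinases. LATS2 was at 80.2, 84.8 and 84.2 CPM in DMSO and 80.9, 81.9 and 79.2 CPM in PARGi. AJUBA was at 148, 144 and 147 CPM in DMSO and 147, 140 and 144 CPM in PARGi. In both genes the groups overlapped, for LATS2 because DMSO replicate 1 lay among the PARGi libraries. The log2 fold changes were -0.043 (SE 0.029) and -0.031 (SE 0.026).

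TEAD1, the DNA-binding partner of YAP and itself a listed target, was nearly level. It was at 304, 304 and 308 CPM in DMSO and 302, 313 and 308 CPM in PARGi, and PARGi replicate 1 was the lowest of all 6 libraries. The log2 fold change was 0.011 (SE 0.024) with a 95% interval from -2.67% to 4.32%, and its sign turned to -0.014 with upper-quartile scaling. For scale, the intervals of the components together reach from -8.11% (AMOTL2) to 7.53% (AMOTL1). That of AXL, from 8.12% to 16.1%, begins just above them, and those of CCN1, CCN2, ANKRD1 and F3 begin at 20.0% or above. All these intervals are description only, since the genes were chosen on this contrast.

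Per kilobase of annotated exon, which lets genes be set against each other, CCN1 had the highest level in DMSO at 152 ± 3.29 CPM per kb (SD, n = 3). ANKRD1 followed at 140 ± 1.61 and CCN2 at 135 ± 2.03. AXL was at 74.1 ± 1.44 CPM per kb, TEAD1 at 29.7 ± 0.227 and AJUBA at 24.5 ± 0.327. AMOTL1 (17.2 ± 0.41), LATS2 (14.9 ± 0.452), AMOTL2 (11.7 ± 0.169) and F3 (8.91 ± 0.462) closed the order. Every gene was above the next in all 3 DMSO libraries, so no neighbours overlapped. In PARGi the order was the same down to LATS2, but F3 (11.3 ± 0.23) had come level with AMOTL2 (11.2 ± 0.133), and those ranges overlapped. The exonic length is that of all annotated transcripts together, which understates the level of genes with many alternative exons.

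**Figure D3:**
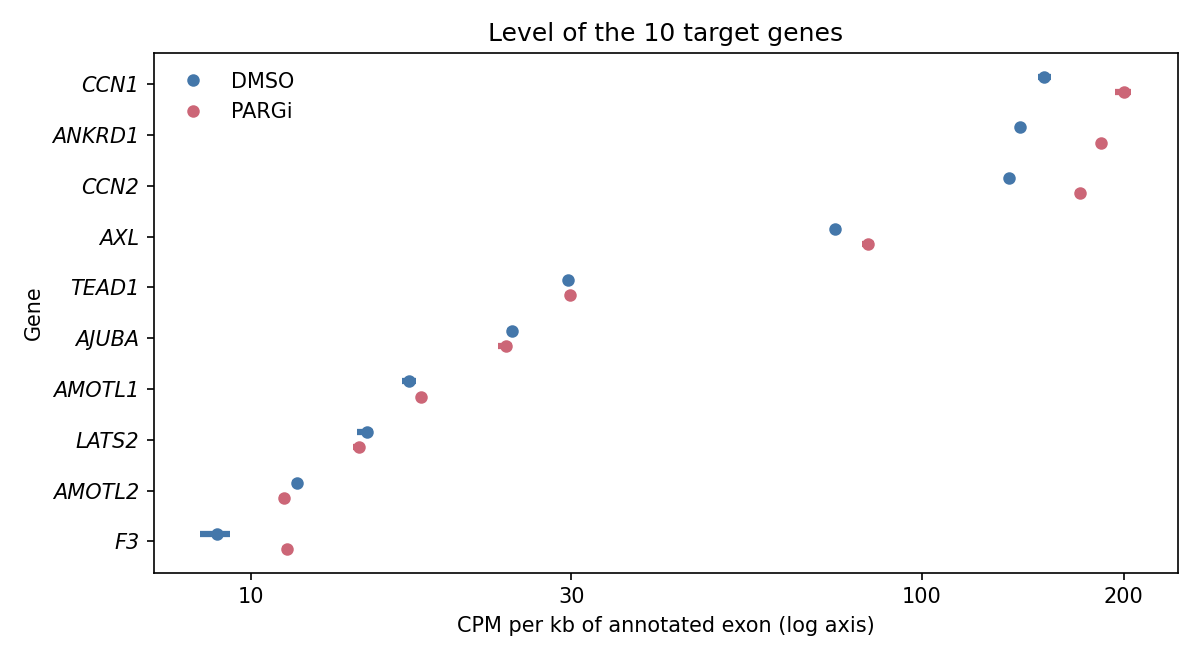
Level of the 10 genes in CPM per kb of annotated exon (x axis, log scale; points are group means and bars run from the lowest to the highest of 3 libraries, and are hidden by the point where short). CCN1, ANKRD1 and CCN2 lie at 135 to 152 CPM per kb in DMSO and at 172 to 200 in PARGi, and F3 moves from 8.91 to 11.3.

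Other genes of the pathway were taken from lists written from general knowledge of it, with earlier results of these data known, and edgeR's quasi-likelihood fit gave each a test, Benjamini-Hochberg adjusted over all 20409 genes. By that test 24.3% of all genes passed an adjusted p of 0.05, 13.2% as higher and 11.0% as lower in PARGi. Of the called genes 54.5% were higher, and with upper-quartile scaling 40.5%.

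A first list held 15 further genes of a widely used YAP and TAZ target signature, of which 13 could be tested and IGFBP3 and NT5E had too few counts. Of the 13, 4 rose and 4 fell, and their median log2 fold change was -0.038, so as many fell as rose, while with upper-quartile scaling 4 rose and 5 fell. GADD45A, a stress and p53-responsive growth arrest gene, rose from 43.0 ± 4.46 to 54.6 ± 2.07 CPM (0.34 ± 0.048 SE on the log2 scale, edgeR adjusted p = 1.05e-05). TGFB2, a TGF-beta ligand, rose from 116 ± 1.87 to 128 ± 2.52 CPM (0.14, edgeR adjusted p = 0.000323), with 26.6% of its exonic bases shared with a same-strand transcript. PTPN14, a phosphatase that binds and restrains YAP, fell from 189 ± 3.93 to 158 ± 5.31 CPM (log2 value -0.26 ± 0.028 SE, edgeR adjusted p = 1.8e-07). ARHGEF17 fell from 153 ± 0.927 to 134 ± 1.5 CPM (-0.19, edgeR adjusted p = 2.86e-06). The other called genes, named beyond the rule for named genes, were DOCK5 (0.15) and CRIM1 (0.11) above DMSO and FJX1 (-0.18) and CCDC80 (-0.078) below it. The CCDC80 call was lost without DMSO replicate 2, PARGi replicate 2 or PARGi replicate 3, with the replicate number as a block and with no filter on low counts.

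A second list held 7 other genes often named as YAP targets, several of which also answer to TGF-beta or other signals. Of these 4 rose and none fell (13.2% and 11.0% over all genes), with a median of 0.36. INHBA, the inhibin beta A subunit that forms activin, rose from 68.4 ± 0.29 to 107 ± 1.61 CPM (0.65 ± 0.027 SE on the log2 scale, edgeR adjusted p = 1.89e-14). ARHGAP29 rose from 209 ± 3.94 to 269 ± 10.1 CPM (0.36, edgeR adjusted p = 8.42e-10), and EDN1, the endothelin peptide, from 9.45 ± 0.292 to 12.9 ± 0.6 CPM (0.44, edgeR adjusted p = 1.92e-06). AREG, an EGF receptor ligand, rose from 1.14 ± 0.108 to 2.12 ± 0.105 CPM (0.89 ± 0.135 SE, edgeR adjusted p = 2.59e-05). THBS1 (0.058), ANLN (0.045) and BIRC5 (0.029) did not pass the threshold. THBS1 was near it (edgeR adjusted p = 0.0683) and passed as higher with DESeq2, with no filter on low counts and without DMSO replicate 2. The 2 lists thus had medians on different sides of 0, and the difference between them was not tested.

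Among the coactivators and DNA-binding partners, YAP1 itself did not pass (191 ± 6 to 194 ± 1.38 CPM, 0.028 ± 0.026 SE on the log2 scale, edgeR adjusted p = 0.49), while WWTR1 rose from 97.8 ± 2.14 to 110 ± 0.809 CPM (0.17 ± 0.027 SE, edgeR adjusted p = 2.98e-05). VGLL3, a cofactor that competes for TEAD, rose from 20.2 ± 1.17 to 27.3 ± 1.74 CPM (0.44, edgeR adjusted p = 3.28e-07), and VGLL4, a TEAD repressor, fell from 80.2 ± 0.423 to 72.9 ± 1.63 CPM (-0.14, edgeR adjusted p = 0.00056). TEAD3 passed as higher (0.095, edgeR adjusted p = 0.00893) and TEAD2 as lower (-0.079, edgeR adjusted p = 0.0446), and TEAD4 did not pass (-0.039, edgeR adjusted p = 0.418). In all, 3 of 7 rose and 2 fell, where 13.2% of all genes passed as higher and 11.0% as lower. Without PARGi replicate 3 both TEAD calls were lost and 3 of the 5 calls remained, and the TEAD2 call was lost in 7 of the 12 alternatives.

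Of 18 upstream Hippo components 6 rose and 1 fell (13.2% and 11.0% over all genes), with a median of 0.049. WWC1 (KIBRA), an adaptor that promotes LATS activity, rose from 26.0 ± 0.455 to 32.0 ± 0.972 CPM (0.30 ± 0.038 SE on the log2 scale, edgeR adjusted p = 2.09e-06). NF2, which encodes the tumour suppressor merlin, rose from 200 ± 3.73 to 236 ± 0.88 CPM (0.24 ± 0.025 SE, edgeR adjusted p = 1e-07), and the kinase gene MAP4K4 from 373 ± 2.82 to 423 ± 4.49 CPM (0.18, edgeR adjusted p = 2.88e-06). AMOT, the relative of AMOTL1 and AMOTL2, fell from 52.1 ± 2.11 to 42.7 ± 0.372 CPM (log2 value -0.29 ± 0.033 SE, edgeR adjusted p = 5.54e-07). LATS1, the partner kinase of LATS2, did not pass (56.9 ± 0.867 to 55.1 ± 0.651 CPM, -0.048, edgeR adjusted p = 0.259). The remaining 3 higher calls were small, STK4 (0.093), MOB1B (0.087) and FRMD6 (0.069). All 3 were lost with upper-quartile scaling, without DMSO replicate 1 and without PARGi replicate 2, which left 4 calls each time. MOB1B and FRMD6 were also lost with the replicate number as a block, without DMSO replicate 3 and without PARGi replicate 3. In addition, MOB1B was lost with DESeq2, and FRMD6 with DESeq2 size factors and with at least 10 counts in every library.

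Actin and SRF target genes were included because CCN1, CCN2 and ANKRD1 also answer to SRF and its actin-sensing MRTF cofactors. Of 15 such genes 7 rose and 1, FLNA, fell (-0.12), with a median of 0.068. The shares over all genes were 13.2% higher and 11.0% lower. FHL2, a LIM domain cofactor, rose from 75.2 ± 2.69 to 116 ± 3.04 CPM (0.62 ± 0.030 SE on the log2 scale, edgeR adjusted p = 3.05e-13). CNN1 rose from 33.3 ± 1.45 to 43.3 ± 1.82 CPM (0.38, edgeR adjusted p = 7.39e-08), TAGLN from 115 ± 3.89 to 133 ± 2.87 CPM (0.21, edgeR adjusted p = 7.16e-06) and ACTA2 from 1.62 ± 0.156 to 3.13 ± 0.316 CPM (0.95 ± 0.12 SE, edgeR adjusted p = 2.09e-06). SRF itself did not pass (0.031), nor did MYL9 (0.0084), a myosin light chain, or ACTB (-0.046) and ACTG1 (-0.0036), the cytoplasmic actins. With upper-quartile scaling 6 rose and 3 fell, as ZYX lost its call and ACTB and CNN2 passed as lower.

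Relatives and partners of the 10 genes went in both directions. Of 16 such genes 13 were tested, 2 rose and 4 fell (1 and 5 with upper-quartile scaling), 7 did not pass, and the median was -0.061. Over all genes 13.2% passed as higher and 11.0% as lower. CCN3, of the same family as CCN1 and CCN2, fell from 205 ± 14.3 to 156 ± 7.22 CPM (-0.40 ± 0.038 SE on the log2 scale, edgeR adjusted p = 3.01e-08). GAS6, the ligand of AXL, fell from 424 ± 21.2 to 309 ± 2.63 CPM (log2 value -0.46 ± 0.029 SE, edgeR adjusted p = 2.96e-11). Among the clotting and protease receptors near F3, the thrombin receptor gene F2R fell from 123 ± 2.3 to 113 ± 2.7 CPM (-0.13, edgeR adjusted p = 0.00117). F2RL1 passed as higher (0.13, edgeR adjusted p = 0.0135), a call that was lost without DMSO replicate 1, without PARGi replicate 1 and without PARGi replicate 2. F7, the ligand of tissue factor, had too few counts for the test. TRIP6, a LIM protein related to AJUBA, fell (-0.087) and MERTK, a TAM receptor like AXL, passed as higher (0.13, edgeR adjusted p = 0.0443), and both are named to complete the counts. The TRIP6 call was lost without PARGi replicate 3, and that of MERTK in each alternative that left out a library other than DMSO replicate 3, with DESeq2, with upper-quartile scaling and with the replicate number as a block.

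**Figure D4:**
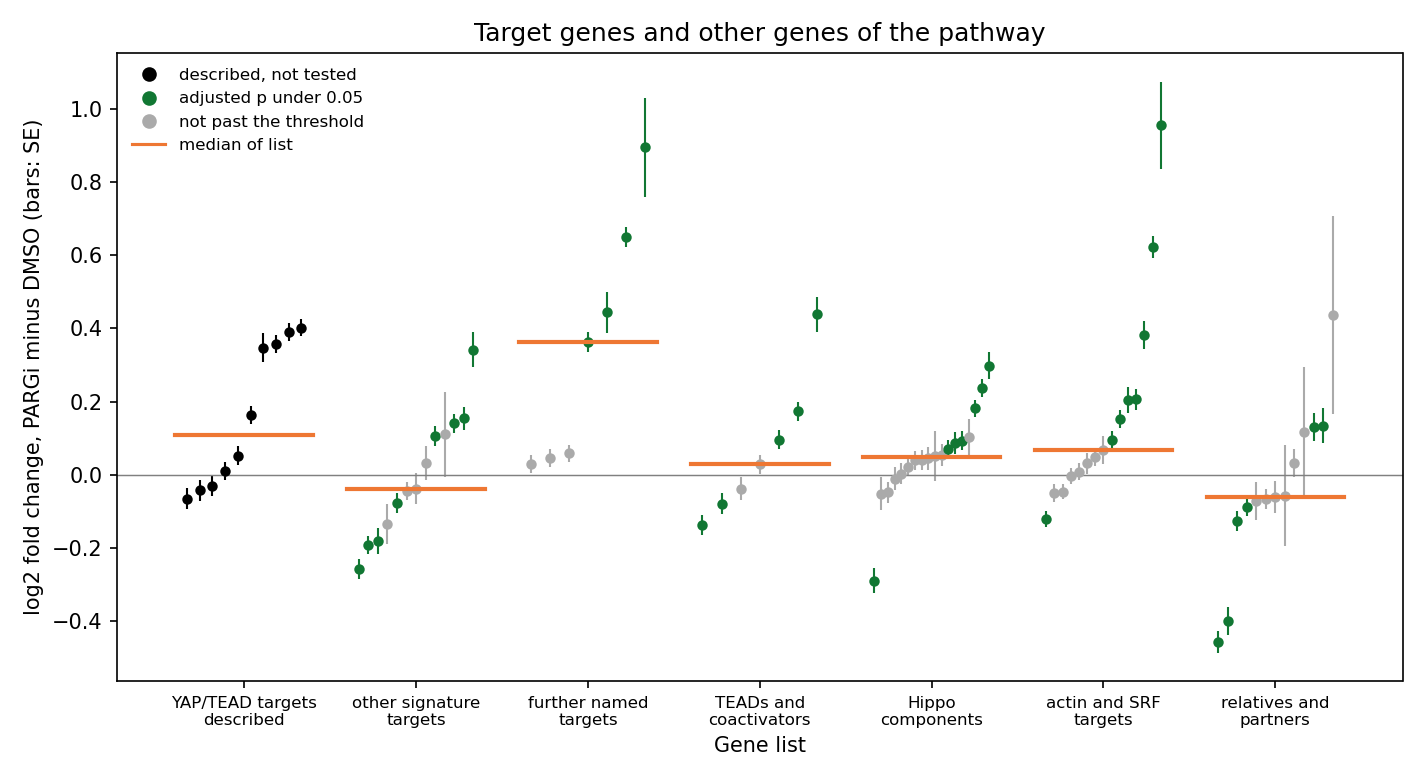
Log2 fold change of PARGi over DMSO for every tested gene of 7 lists (y axis; points are genes in order of size, bars are 1 SE, orange lines are list medians; green passed an adjusted p of 0.05, grey did not, black are the 10 described genes, which were not tested). The list of further named targets has the highest median, 0.36, and the medians of the signature targets (-0.038) and of the relatives and partners (-0.061) lie below 0.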

How the data were processed

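RNA of 6 libraries, 3 DMSO and 3 PARGi, was measured as strand-specific total RNA-seq, per the labels' protocols. The authors deposited unnormalised read counts, as whole numbers for each gene, in files without a header. The submitters' processing notes name cutadapt 1.18, STAR 2.7.3a, SAMtools 1.9, DESeq2, deepTools and the build hg38. The annotation release, the strand setting and any filters are not given in the sources used here. Of 316 genes that sit within exons of a highly counted gene of the other strand, 284 had counts, with a median of 16 in sum against 28950.5 for the outer gene, so antisense overlap was taken to be resolved.

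Symbols were found for 60507 of 60708 identifiers, and positions and exonic lengths came from GENCODE 29 (GRCh38), which held 58440. The test was edgeR 4.0.16 in R 4.3.3 (filterByExpr, TMM, glmQLFit, glmQLFTest, two-sided), on all 6 libraries with no block, with a Benjamini-Hochberg adjusted threshold of 0.05, and it was tested on simulated counts. CPM are TMM-scaled and carry the SD over 3 libraries. The SE is the absolute log2 fold change over the square root of F, and intervals are 95%. No molecular identifiers are recorded, so counting error is a lower limit. Alternatives were DESeq2 1.42.0, other scalings and filters, a replicate block and each library left out. Figures used matplotlib 3.10.9.

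The members and lists were chosen with earlier results of these data known. The signature and the other lists were written from general knowledge of the pathway. Named genes were the 10 members, YAP1, WWTR1, TEAD2, TEAD3, TEAD4, LATS1 and AMOT, and up to 4 called genes of each other list with the smallest p. Other genes were named with their values already seen. One gene was left out of the second list of targets and is not reported here.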

Additional observations from a re-analysis of the deposited data

How the results depend on the processing

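The log2 fold changes of the 10 genes were recomputed under 12 alternatives, and 116 of 120 values moved by less than the spread between replicates. The 4 that moved more were all under upper-quartile scaling: CCN2 (0.331), ANKRD1 (0.377), AMOTL2 (-0.0893) and TEAD1 (-0.0136). That scaling lowered all 10 genes by a similar step, and the median of all tested genes went from -0.00704 to -0.0315. The step was thus not particular to these 4. TEAD1 was also below 0 without PARGi replicate 2. CCN1, CCN2, ANKRD1, F3 and AXL were higher in every alternative with no overlap between groups, and F3 ranged most, from 0.303 (DMSO replicate 3 left out) to 0.377 (DMSO replicate 1 left out). The number of the 10 higher without overlap was 6, but 5 with upper-quartile scaling (AMOTL1 lost) and 7 without PARGi replicate 1 (TEAD1 gained). The number of the 10 lower without overlap was 1, but 2 with upper-quartile scaling, and 1 to 2 with a library left out (2 without DMSO replicate 1, DMSO replicate 2 or PARGi replicate 1). The number of Hippo components called was 7, but 4 with upper-quartile scaling and 4 to 7 with a library left out. That of TEADs and coactivators was 5, and 3 to 5 with a library left out. Over all genes 3607 to 4960 were called in the alternatives. Of 336 values for the 28 other named genes, 324 kept their side of the threshold and 12 lost their call (TEAD2 in 7, F2RL1 in 3, TEAD3 in 2), with none reversed. With the replicate block 4553 genes were called. The counts gave no sign that the replicate numbers pair the libraries. Deviations of same-numbered libraries correlated at -0.00784 to 0.0157, and not every library correlated best with its own number. With 3 libraries per group this cannot show how they were grown or processed. With the shorter core GAATG, 35.7% of promoter windows held a match, and the same 6 genes did. Why the scalings and the left-out libraries gave different values was not tested.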
